A study of Mus musculus with 12 samples.

Results

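The genes described here mark the granule cells of the cerebellar cortex and a related excitatory neuron, the unipolar brush cell. They are a list of 32 genes, given by name but drawn up with earlier results of these data known, and all 32 were found by symbol among the 57010 genes of the count table. A filter on low counts kept 31 of them among 19166 tested genes. Cbln2 did not pass, with 0 to 15 counts per library. The samples were bulk RNA libraries of mouse cerebellum, taken from crus 1, a lateral lobule, per the series' design text. Of the 12 libraries, 4 came from FVB mice given saline, 4 from Fmr1 knockout mice given saline (titled sham), and 4 from Fmr1 knockout mice given poly(I:C) into the peritoneal cavity. Poly(I:C), a laboratory-made double-stranded RNA, imitates viral infection, and FVB is the background strain named for the knockout. No FVB group received poly(I:C), so the effect of treatment can be measured only in the knockout. The dose, the interval to sampling, age and sex were not given in the labels, nor whether each library was 1 animal, so the p-values rest on the spread among libraries, which may be technical. Depth was 35155420 to 48717119 counts in FVB, 38723699 to 50248411 in saline knockouts and 39352860 to 56390207 in treated knockouts.

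Granule cells are small glutamatergic neurons that receive mossy fibres and send parallel fibres to Purkinje cells. They arise from the rhombic lip through a progenitor that expresses Atoh1, and Neurod1, Pax6, Zic and NFI factors act in the lineage. At the parallel fibre synapse, secreted cerebellins join presynaptic neurexins to receptors on the Purkinje cell. Unipolar brush cells come from the same germinal zone, relay mossy fibre input within the granular layer, and are known by Eomes and, in one class, by the calcium-binding protein calretinin (Calb2). In bulk tissue, fewer cells of a type and less RNA per cell cannot be told apart.

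Fmr1 was at 85.5 to 108 CPM (read counts scaled to a common library total) in FVB and at 27.9 to 36.7 CPM in the 8 knockout libraries. Ttr, a choroid plexus gene, was at 2167 to 4156 CPM in saline knockout 2 and treated knockout 2 and 3, and at 1.63 to 65.3 CPM in the other 9 libraries, so the calls are also given without these 3 libraries. The 6 choroid plexus markers, none of them at 0 throughout, summed to 17.7 to 81.6 CPM in FVB, 20.1 to 4364 in saline knockouts and 8.15 to 2782 in treated knockouts, and their part in the results was not tested. Hox and other hindbrain markers summed to at most 0.857 CPM. Granule cell markers summed to 4438 to 5133 CPM.

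Few members passed the test between groups. Svep1, a large secreted matrix protein, rose from FVB to the saline knockout, with its highest mean in treated knockouts. Against FVB, the treated knockout also had higher Barhl2, a homeobox factor, and lower Calb2 and Nfia, the latter a factor of the NFI family. Cbln3, Cbln1, Neurod1, Zic1 and Slc17a7, all abundant granule cell genes, did not pass in any comparison. The upstream sequences of 3 of the 4 genes that passed are shown because the classes of factor in the list, basic helix-loop-helix and NFI proteins, have known DNA motifs. They are the 250 bases before the RefSeq start site (GRCm38.p6), on the gene's strand, 5′ to 3′. Capitals mark matches on either strand to CAGNTG, an E-box pattern with any base at N. The pattern is not particular to Neurod factors. Calb2 is named only. Svep1 lies on chr4:58206597-58206846 (minus strand), Barhl2 on chr5:106458167-106458416 (minus strand) and Nfia on chr4:97581693-97581942 (plus strand).
Svep1: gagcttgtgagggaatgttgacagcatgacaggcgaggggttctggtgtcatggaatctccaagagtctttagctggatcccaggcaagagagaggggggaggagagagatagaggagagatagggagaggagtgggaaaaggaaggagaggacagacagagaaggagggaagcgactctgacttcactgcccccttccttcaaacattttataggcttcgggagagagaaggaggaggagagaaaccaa
Barhl2: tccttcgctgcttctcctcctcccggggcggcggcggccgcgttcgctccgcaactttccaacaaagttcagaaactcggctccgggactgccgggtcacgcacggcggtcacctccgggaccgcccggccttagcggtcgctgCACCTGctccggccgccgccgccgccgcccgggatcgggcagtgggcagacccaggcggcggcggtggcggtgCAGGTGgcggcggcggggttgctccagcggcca
Nfia: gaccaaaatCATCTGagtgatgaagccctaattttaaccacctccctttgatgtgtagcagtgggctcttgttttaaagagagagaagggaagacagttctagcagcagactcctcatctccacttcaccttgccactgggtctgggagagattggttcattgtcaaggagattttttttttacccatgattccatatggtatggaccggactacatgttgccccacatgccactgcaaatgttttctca
CAGNTG matched 2 times upstream of Barhl2, 1 time upstream of Nfia and 0 times upstream of Svep1. The NFI motif TTGGC, searched on both strands, matched in none of the 3. Over 32851 such windows in RefSeq, 44.8% held CAGNTG and 41.5% held TTGGC. Of the members 24 of 32 had an entry, giving 36 windows, of which 41.7% held CAGNTG and 47.2% held TTGGC. These matches describe letters only.

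Levels spanned a wide range. To compare genes, the mean CPM over 12 libraries was divided by the exon length of the gene. Cbln3 and Cbln1, both cerebellins, were the highest at 400 and 365 CPM per kb, above 99.8% and 99.7% of the tested genes with a known length. Calb2 was at 210, Neurod1, the helix-loop-helix factor of granule cell differentiation, at 186, and Zic1, a zinc finger factor, at 156 CPM per kb. Slc17a7, the vesicular glutamate transporter of parallel fibres, was at 115. The lowest were Uncx (5.08), Sema6a (4.52), Svep1 (3.84) and Barhl1 (3.49 CPM per kb). In this order, 3 pairs of neighbours did not overlap over the 12 libraries, namely Cbln1 above Calb2, Rbfox3 above Grin2c and Cadps2 above Barhl2. All other neighbours overlapped. The list's median percentile was 94.2, and 12 of the 31 were at or above the 95th percentile. Genes that passed were found at both ends of the order, with Calb2 near the top and Svep1 near the bottom.

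**Figure D1:**
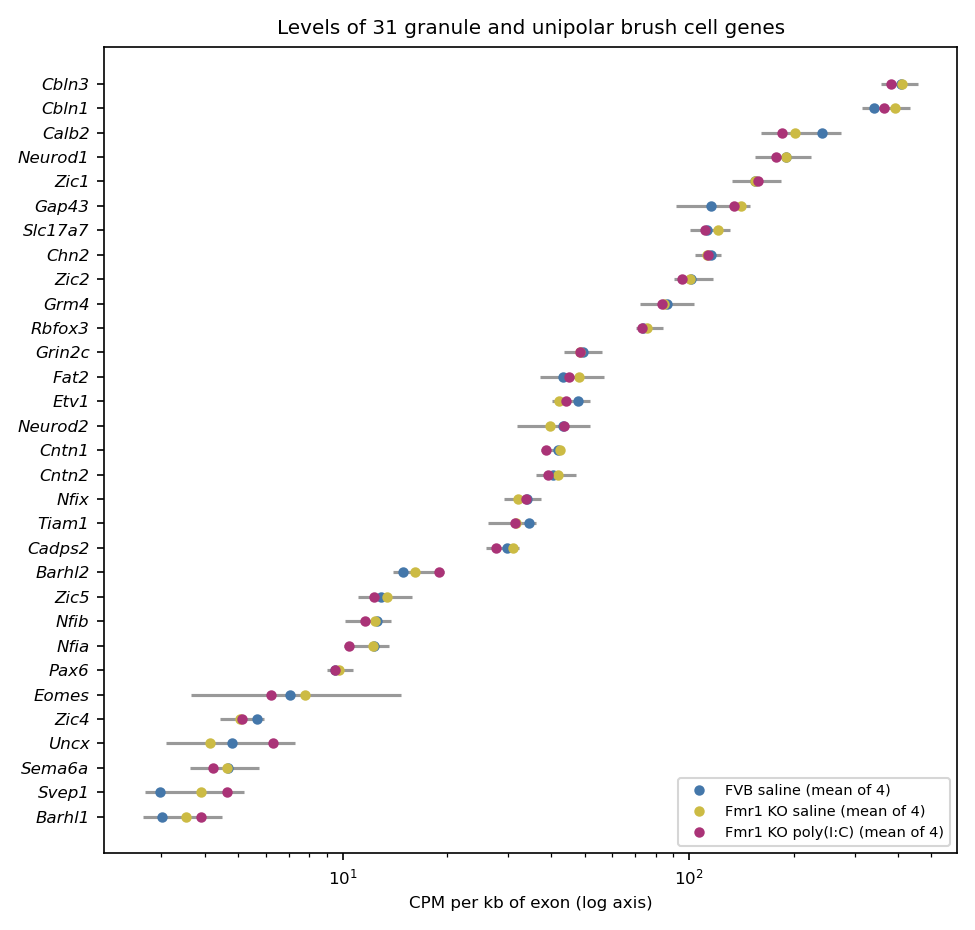
Mean CPM per kb of exon for each of 31 members (log axis), by group. Cbln3 (400) and Cbln1 (365) are at the top and Barhl1 (3.49) at the bottom, and for most genes the marks of the 3 groups nearly coincide.

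Saline knockout against FVB is called genotype here, since it compares the lines without the stimulus. A gene passed, rose or fell where edgeR's quasi-likelihood test gave a Benjamini-Hochberg adjusted p under 0.05 over all 19166 genes. By this rule 1 of 31 members passed, and rose, against 1.53% of all genes (0.814% rose and 0.720% fell). At an unadjusted p under 0.05 there were 5 members, 16.1%, against 12.0% of all genes. The members' median log2 fold change was 0.00, the same as over all genes. In the knockout 17 members were higher and 14 lower, where 50.9% of all genes were higher. For 27 of 31 the 95% interval lay within ±0.5 on the log2 scale, and the others were Svep1, Barhl1, Uncx and Eomes. DESeq2 called 1 member as well and limma-voom called 0.

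Treated against saline knockout, called treatment, asks what poly(I:C) changed in the knockout. In this contrast 0 of 31 members passed by edgeR, against 2.87% of all genes (1.81% rose and 1.06% fell). At an unadjusted p under 0.05 there were 6, 19.4%, against 15.5% of all genes. DESeq2 called 2, Nfia and Barhl2, and limma-voom called 0. The median was −0.06, against 0.00 over all genes, with 10 higher and 21 lower, where 49.6% of all genes were higher. For 29 of 31 the interval lay within ±0.5, the exceptions being Uncx and Eomes.

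Treated knockout against FVB combines both differences and shares its libraries with the other comparisons. Here 4 of 31 members passed, 12.9%, against 7.05% of all genes. DESeq2 and limma-voom each called the same 4. Of these members 2 rose and 2 fell, where 3.81% of all genes rose and 3.24% fell. Members with an unadjusted p under 0.05 were 7, 22.6%, close to the 21.3% of all genes. The median was −0.05, against 0.00 over all genes. Of the members 10 were higher and 21 lower, where 50.2% of all genes were higher. For 26 members the interval lay within ±0.5, and no such share over all genes is given here. Members whose libraries did not overlap between groups were 3, 3 and 4 in the order genotype, treatment and treated knockout against FVB, or 9.68%, 9.68% and 12.9%, against 7.02%, 9.75% and 14.2% of all genes. These shares lie near those of all genes.

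**Figure D2:**
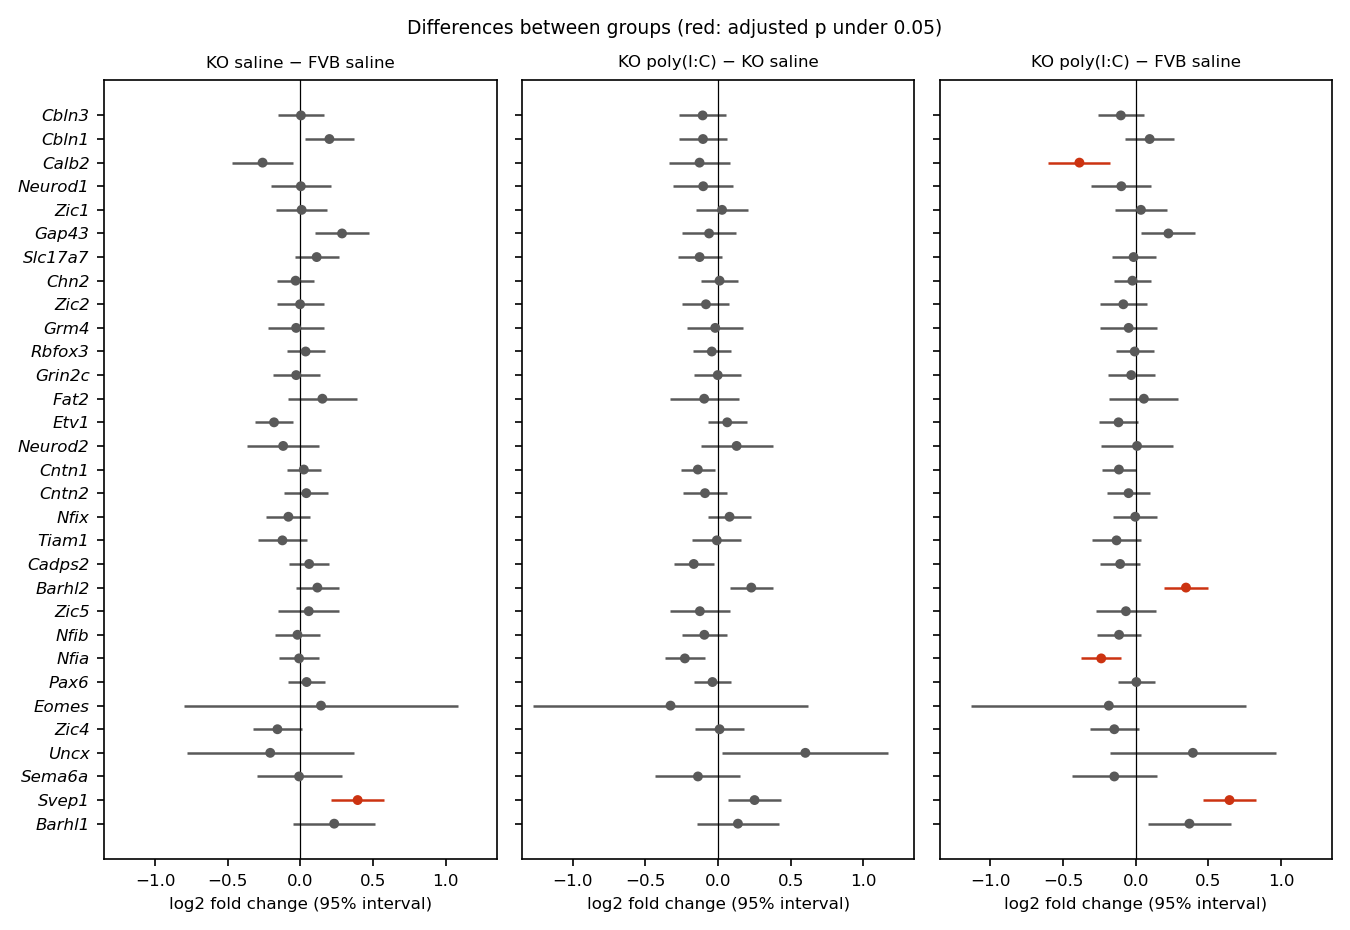
Log2 fold change of each of 31 members in the 3 comparisons, with 95% intervals from edgeR. Red marks an adjusted p under 0.05, which 1, 0 and 4 members reached, and the widest intervals belong to Eomes and Uncx.

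Among secreted and matrix proteins, Svep1 had the clearest difference. FVB libraries 1 to 4 had 49.5, 48.5, 50.0 and 43.4 CPM, saline knockouts 1 to 4 had 64.2, 65.1, 67.1 and 55.2 CPM, and treated knockouts 1 to 4 had 61.8, 78.2, 83.9 and 75.5 CPM. Values of other genes are given in the same library order. Every knockout library lay above every FVB library, while the knockout groups overlapped through treated knockout 1. The genotype difference was 0.39 on the log2 scale (SE 0.0875, edgeR adjusted p = 0.0266), the treatment difference 0.25 (SE 0.0868, adjusted p = 0.147), and the difference of treated knockout from FVB 0.64 (SE 0.0874, adjusted p = 8.09e-05). The call against FVB in treated knockouts passed in all 22 alternatives, with adjusted p of 1.4e-12 to 0.00699, the latter without the 3 libraries high in Ttr. The genotype call was lost in 9 of 22, namely without any 1 of FVB 1 to 4 or saline knockout 1 to 3, by limma-voom, and on leaving out the 3 libraries high in Ttr (adjusted p 0.056 to 0.108). An annotated antisense gene, Gm26889, overlaps 2244 bases of Svep1 exons in GENCODE M21, and without a known strand setting their reads cannot be told apart. Smaller exon overlaps are annotated for Neurod1 with Cerkl (201 bases), Zic1 with Zic4 (60 bases) and Chn2 with 9130019P16Rik (552 bases).

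The cerebellins themselves did not pass. Cbln1, the organizer of parallel fibre synapses, was at 974, 1217, 957 and 992 CPM in FVB, at 1081, 1129, 1318 and 1226 in saline knockouts, and at 1154, 1122, 1059 and 1088 in treated knockouts. FVB 2 was high in its group and reached into the knockout range. The genotype difference was 0.20 (SE 0.0801, edgeR adjusted p = 0.2997). Cbln3, the partner of Cbln1 in granule cells, was at 1744 to 2228 CPM over all libraries, with fold changes of 0.00, −0.11 and −0.10 on the log2 scale. Cbln2 had 62 counts in all, 20 in FVB, 21 in saline knockouts and 21 in treated knockouts, and was not tested.

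Of the 15 lineage transcription factors, 0 passed for genotype and 0 for treatment by edgeR, and 1 rose and 1 fell in treated knockout against FVB. Etv1 alone had an unadjusted p under 0.05 for genotype, and Barhl2, Uncx and Nfia had one for treatment, where DESeq2 called Barhl2 and Nfia. Barhl2 was at 32.4, 33.4, 35.8 and 36.4 CPM in FVB, 37.1, 34.8, 41.5 and 36.5 in saline knockouts, and 43.5, 44.8, 45.4 and 41.8 in treated knockouts. All 4 treated libraries lay above the 8 saline libraries. The difference of treated knockout from FVB was 0.35 (SE 0.0706, edgeR adjusted p = 0.00488), that of treatment 0.23 (SE 0.0704, adjusted p = 0.0958) and that of genotype 0.12 (adjusted p = 0.568). The call was kept in 21 of 22 alternatives and lost on leaving out the 3 libraries high in Ttr (adjusted p = 0.0997), where the fold change was 0.31. Of the 118 tested genes within 5 Mb of Barhl2, 16.9% passed in treated knockout against FVB, where 7.05% of all genes did. For genotype 10.2% passed, against 1.53% of all genes, and for treatment 5.08%, against 2.87%. Those that passed for treatment included Gbp4, Gbp6, Gbp8, Gbp9 and Gbp10. In treated knockout against FVB, 3.88% of 129 passed near Calb2, 8.51% of 47 near Nfia and 2.04% of 49 near Svep1. For genotype these shares were 0.775%, 0% and 0%. The part of the neighbours in the Barhl2 result was not tested. Its relative Barhl1 was at 11.9, 10.5, 11.3 and 13.55 CPM in FVB, 10.4, 13.5, 13.97 and 17.5 in saline knockouts, and 13.3, 15.2, 17.2 and 15.3 in treated knockouts. The means were 11.8 ± 1.31, 13.8 ± 2.93 and 15.2 ± 1.60 CPM (SD, n = 4). Its difference of treated knockout from FVB was 0.37 (SE 0.135, edgeR adjusted p = 0.112).

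Nfia was at 120, 133, 137 and 148 CPM in FVB, 126, 132, 134 and 142 in saline knockouts, and 110, 122, 113 and 110 in treated knockouts. The treated libraries lay below all saline knockout libraries, and treated knockout 2 overlapped FVB 1. Against FVB the fall was −0.24 (SE 0.0658, edgeR adjusted p = 0.0341), and against the saline knockout the difference was −0.23 (SE 0.0658, adjusted p = 0.0696). The call held in 13 of 22 alternatives. It was lost without FVB 2, 3 or 4, saline knockout 2, or treated knockout 1, 3 or 4, without the 3 libraries high in Ttr, and with log2 Ttr as a covariate (adjusted p 0.051 to 0.128). The other NFI genes, which also act in granule cell maturation, did not pass in any comparison. Nfib was at 188, 185 and 173 CPM and Nfix at 250, 236 and 249 CPM in FVB, saline and treated knockout (edgeR adjusted p of 0.388 and 0.982 for treated knockout against FVB).

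None of the Zic factors, which act in granule cell differentiation, passed in any comparison. Zic1 was at 757 to 1051 CPM, Zic2 at 261 to 338, Zic4 at 45.7 to 61.2 and Zic5 at 54.4 to 77.5 CPM over all libraries. The sum of the 4 was 1292 ± 106 CPM in FVB, 1293 ± 154 in saline knockouts and 1288 ± 37.1 in treated knockouts (SD, n = 4). The smallest adjusted p among them was that of Zic4 in treated knockout against FVB (−0.15, edgeR adjusted p = 0.306). Pax6, a master factor of the lineage, was at 106 to 125 CPM, with group means of 111, 114 and 111 CPM. Neurod1 was at 423 to 611 CPM and Neurod2 at 100 to 163 CPM.

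Etv1, a factor of granule cell maturation, was at 601, 596, 664 and 687 CPM in FVB and 570, 552, 535 and 590 in saline knockouts, with no overlap. Its genotype difference was −0.18 (SE 0.0635, edgeR adjusted p = 0.200). The treated knockout was at 552, 587, 617 and 592 CPM and overlapped both groups. Uncx, a homeobox factor, was at 9.70, 11.2, 16.4 and 22.8 CPM in FVB, 9.85, 12.4, 12.97 and 16.8 in saline knockouts, and 15.4, 22.8, 21.9 and 18.8 in treated knockouts. FVB libraries alone ran from 9.70 to 22.8 CPM, and the treatment difference of 0.60 had an SE of 0.259 (edgeR adjusted p = 0.299).

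Eomes and Calb2 were the members listed as markers of unipolar brush cells. Eomes, the T-box factor that marks these cells, was at 15.2, 28.2, 28.9 and 45.2 CPM in FVB, 24.5, 22.3, 20.9 and 61.4 in saline knockouts, and 19.9, 29.4, 24.3 and 29.7 in treated knockouts. It varied within groups more than any other member, with a residual SD of 0.584 on the log2 scale. Its intervals ran from −0.80 to 1.08 for genotype and from −1.27 to 0.62 for treatment, so both intervals reached past 0.5 in either direction. Calb2 was at 410, 479, 426 and 371 CPM in FVB, 419, 280, 342 and 366 in saline knockouts, and 325, 335, 327 and 301 in treated knockouts. All treated libraries lay below all FVB libraries, and the saline knockout overlapped both. The fall from FVB to treated knockout was −0.39 (SE 0.1005, edgeR adjusted p = 0.0272), with −0.26 (adjusted p = 0.280) for genotype and −0.13 (adjusted p = 0.602) for treatment. The call held in 14 of 22 alternatives, the one that left out the 3 libraries high in Ttr included (adjusted p = 0.0333). It was lost without FVB 1, 2 or 3, without any 1 of the treated libraries, and with log2 Ttr as a covariate (adjusted p 0.0505 to 0.0915). Calretinin is also made by granule cells, and NFIA by astrocytes. The Calb2 counts of bulk tissue therefore cannot be assigned to unipolar brush cells. Markers of 4 other cell classes moved in the same contrast, treated knockout against FVB. Of 5 interneuron markers 3 fell (Gad1, Kit and Sorcs3), and their sum was 1795 to 2167 CPM in FVB, 1627 to 1908 in saline knockouts and 1524 to 1762 in treated knockouts. Of 5 markers of astrocytes and Bergmann glia 1 fell, the water channel gene Aqp4 (457, 466 and 363 CPM in FVB, saline and treated knockout, −0.33, edgeR adjusted p = 0.0328), which also fell with treatment (−0.36, adjusted p = 0.0368). Their sum was 2496 to 2875, 2646 to 2950 and 2412 to 2739 CPM. Of 4 microglia markers P2ry12 fell (−0.59, edgeR adjusted p = 0.0125), and with treatment P2ry12 and Csf1r fell (−0.62 and −0.41, adjusted p of 0.0165 and 0.0372). Their sum was 67.5 to 78.0, 64.0 to 79.1 and 48.0 to 63.5 CPM. Of 5 oligodendrocyte markers Mobp rose (0.52, edgeR adjusted p = 0.00659), and their sum was 5195 to 6145, 5620 to 6197 and 5323 to 7157 CPM. For genotype Sorcs3 fell (−0.41, edgeR adjusted p = 0.0424). None of these markers was at 0 throughout, and their part in the results on the members was not tested.

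**Figure D3:**
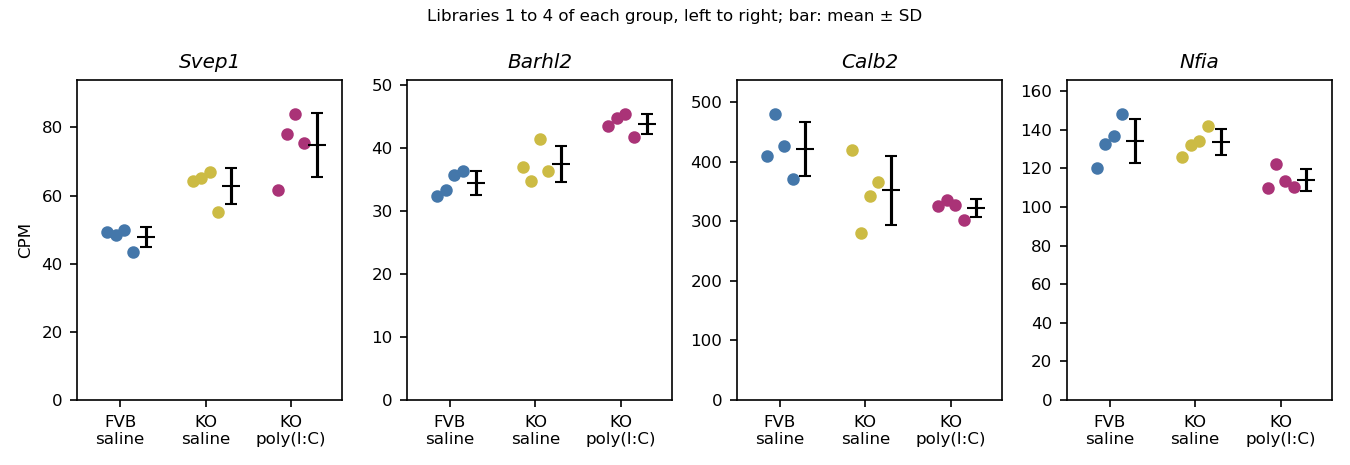
CPM per library of the 4 members that passed in at least 1 comparison, with the mean and SD of each group of 4 libraries. Treated knockout libraries lie above all FVB libraries for Svep1 and Barhl2 and below them for Calb2, while for Nfia treated knockout 2 (122 CPM) overlaps FVB 1 (120 CPM).

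The 4 genes of glutamate transmission and vesicle release, and Rbfox3, a marker of mature neurons, did not pass in any comparison. Slc17a7 was at 605 ± 62.3, 654 ± 36.9 and 599 ± 28.0 CPM (SD, n = 4) in FVB, saline and treated knockout. Grin2c, the NMDA receptor subunit of mature granule cells, was at 249 ± 25.7, 244 ± 16.1 and 244 ± 18.8 CPM. Grm4, a presynaptic metabotropic receptor of parallel fibres, was at 517 ± 73.7, 506 ± 33.5 and 499 ± 48.7 CPM. Rbfox3, which encodes the neuronal nuclear antigen NeuN, was at 428, 439 and 426 CPM. For these 4 genes all fold changes lay between −0.13 and 0.11 on the log2 scale. Cadps2, which primes dense-core vesicles for release, was at 251, 308, 284 and 299 CPM in FVB, 299, 290, 304 and 297 in saline knockouts, and 271, 261, 248 and 279 in treated knockouts. The treated libraries lay below all saline knockout libraries and overlapped FVB, and the treatment difference was −0.17 (SE 0.0652, edgeR adjusted p = 0.203).

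Of the 7 genes of adhesion, guidance and growth, 0 passed in any comparison by edgeR. Gap43 (genotype and treated knockout against FVB) and Cntn1 (treatment and treated knockout against FVB) had unadjusted p under 0.05. Gap43, a growth cone protein, was at 140, 194, 176 and 194 CPM in FVB, 205, 200, 225 and 229 in saline knockouts, and 216, 206, 188 and 212 in treated knockouts. All saline knockout libraries lay above FVB, and FVB 1 was the lowest of the 12. The genotype difference was 0.29 (SE 0.0880, edgeR adjusted p = 0.137). It passed without the low-count filter (adjusted p = 0.0249), and the difference of treated knockout from FVB was 0.22 (edgeR adjusted p = 0.142). Cntn1, an adhesion molecule of axons, was at 387, 401, 389 and 399 CPM in FVB, 410, 408, 411 and 374 in saline knockouts, and 355, 364, 353 and 382 in treated knockouts. The treated libraries lay below all FVB libraries. The differences were −0.14 for treatment (SE 0.0552, edgeR adjusted p = 0.214) and −0.12 against FVB (adjusted p = 0.233). Cntn2, the axonal glycoprotein TAG-1 of parallel fibres, was at 336 to 439 CPM, Fat2, a giant protocadherin of granule cells, at 540 to 826, and Sema6a, a semaphorin needed for granule cell migration, at 31.9 to 50.2 CPM. The Rac regulators Tiam1 and Chn2 were at 264 to 363 and 605 to 716 CPM.

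Spread within groups was small for most members. Their median residual SD was 0.121 on the log2 scale, against 0.181 over all tested genes. The members were also mostly abundant, at a median percentile of 94.2 in CPM per kb. Their spread was not compared with that of genes at like levels. Cntn1 (0.0502), Chn2 (0.0671) and Pax6 (0.0716) varied least, and Eomes (0.584) and Uncx (0.396) most. Single libraries stood out across many members. FVB 1 was the lowest of its group for 18 of 31 members, 58.1%, against 26.1% of all genes, and FVB 4 was the highest for 16, 51.6%, against 25.3%. Saline knockout 3 was the highest of its group for 14, 45.2%, against 25.4%, and treated knockout 1 the lowest for 13, 41.9%, against 24.2%. Saline knockout 4 was the highest of its group for 15 members, 48.4%, against 28.2% of all genes. It was the lowest for 9, 29%, near the 29.4% of all genes. The same 12 members were highest in both FVB 4 and saline knockout 4, which is 75.0% of those highest in FVB 4 and 80.0% of those highest in saline knockout 4. They were Neurod1, Neurod2, Zic1, Zic2, Zic5, Etv1, Barhl1, Uncx, Eomes, Nfia, Sema6a and Gap43. Of these 10 are transcription factors, as are 15 of the 31 members. Svep1, Fat2 and Cntn2 were lowest of their group in both libraries. These 2 libraries share a number in their titles, and nothing in the labels ties them. The same overlap was not computed over all genes or for other pairs of libraries, so it has no baseline here.

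**Figure D4:**
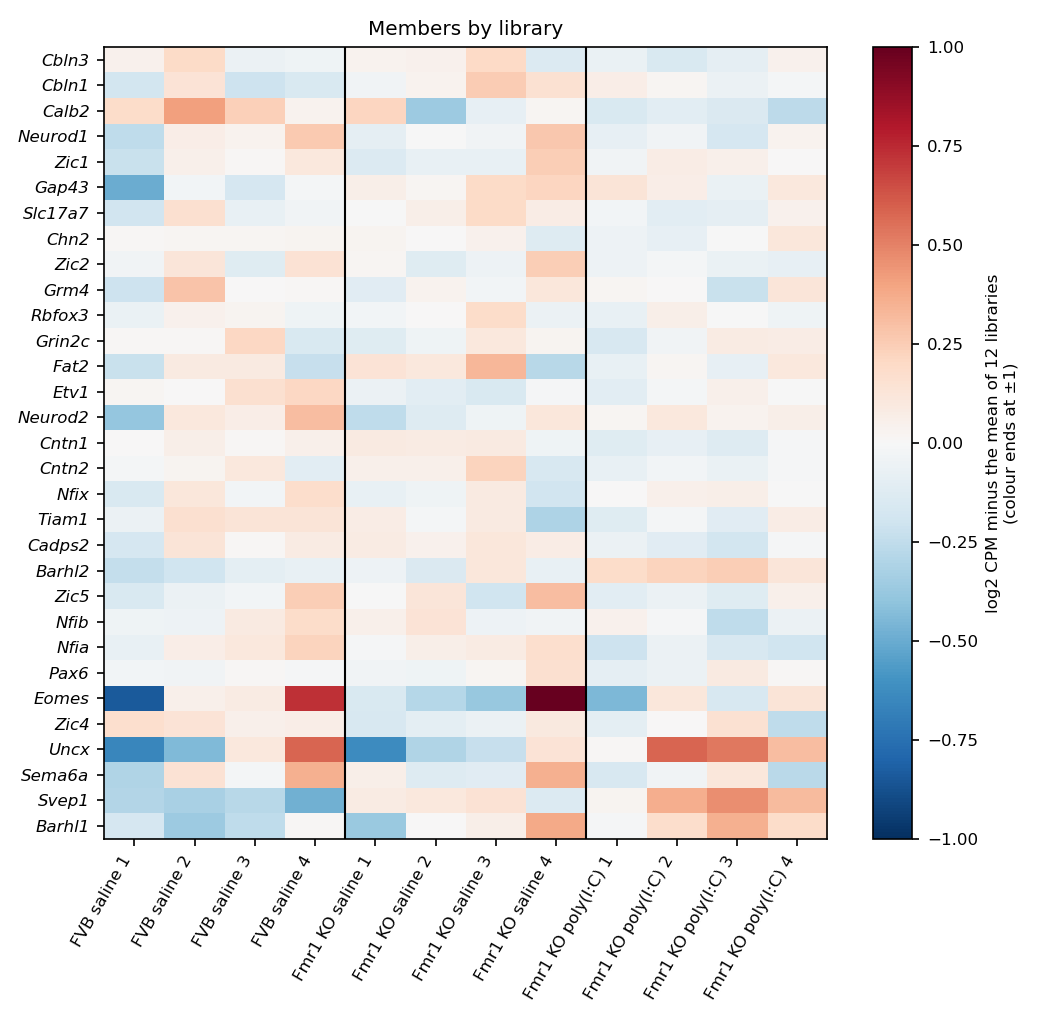
Log2 CPM of 31 members in each of 12 libraries, minus the mean of the gene over the libraries, with the colour ending at ±1. FVB 4 and saline knockout 4 are high for Eomes, Neurod1, Zic2 and Zic5, and saline knockout 4 is low for Fat2, Tiam1 and Chn2.

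Partners of the members at the parallel fibre synapse were taken from a related list of 6 genes of the cerebellin bridge. For genotype 0 passed by edgeR, DESeq2 or limma-voom, with 0 at an unadjusted p under 0.05, against 12.0% of all genes. The list's median log2 fold change was −0.13 for genotype, −0.05 for treatment and −0.13 in treated knockout against FVB, where all genes had 0.00. Grid1, which encodes the receptor GluD1, was at 33.9 ± 1.61 CPM in FVB, 29.5 ± 3.35 in saline knockouts and 26.5 ± 3.90 in treated knockouts (SD, n = 4). It fell against FVB (−0.36, SE 0.0989, edgeR adjusted p = 0.0338), and this was lost in 9 of 22 alternatives. They were each FVB library left out, treated knockout 2, 3 or 4 left out, the 3 libraries high in Ttr left out, and the Ttr covariate. The neurexins Nrxn2 and Nrxn3 did not pass in any comparison.

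In a second list of 16 other granule cell genes, 0 passed for genotype by edgeR or limma-voom and 1 by DESeq2 (Grin2b), with 4 at an unadjusted p under 0.05, which is 25.0% against 12.0% of all genes. The list's median was −0.04, 0.04 and 0.07 in the 3 comparisons. With treatment 2 rose, 12.5% against 1.81% of all genes. They were Grik2, a kainate receptor subunit, from 119 to 152 CPM (0.35, SE 0.0870, edgeR adjusted p = 0.0338) and Grin1, the obligatory NMDA receptor subunit, from 155 to 183 CPM (0.24, SE 0.0619, adjusted p = 0.0447). In FVB, Grik2 was at 124 and Grin1 at 168 CPM. Treated knockout against FVB did not pass by edgeR for Grik2 (0.29, adjusted p = 0.0537) or Grin1 (0.12, adjusted p = 0.272). Grik2 was lost in 7 and Grin1 in 13 of 22 alternatives. Of the omissions, both calls ended without saline knockout 1, treated knockout 2, 3 or 4, or the 3 libraries high in Ttr. Grik2 was also lost without saline knockout 3, and Grin1 without FVB 1, 3 or 4, saline knockout 2 or treated knockout 1. Against FVB, the NMDA receptor subunits Grin2b (16.96 to 12.0 CPM, −0.50, edgeR adjusted p = 0.0156) and Grin2a (63.1 to 51.7 CPM, −0.29, adjusted p = 0.0495) fell, 12.5% of the list against 3.24% of all genes. In saline knockouts Grin2b was at 12.7 CPM and Grin2a at 58.5 CPM. Grin2b was lost in 3 alternatives and Grin2a in 15, and both were lost when the libraries high in Ttr were left out (adjusted p of 0.0889 and 0.264). Single libraries that ended the call were FVB 1 and treated knockout 3 for Grin2b, and all but FVB 1 and saline knockout 4 for Grin2a. Gabra6, the GABA receptor subunit typical of granule cells, was at 947, 927 and 990 CPM and did not pass.

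Among 7 other unipolar brush cell genes, 0 passed for genotype by edgeR, DESeq2 or limma-voom, with 2 at an unadjusted p under 0.05, which is 28.6% against 12.0% of all genes. The list's median was −0.05, −0.13 and −0.18 in the 3 comparisons. With treatment 1 rose, 14.3% against 1.81% of all genes. This was Plcb1, a phospholipase of glutamate receptor signalling, at 77.7, 64.9 and 87.1 CPM in FVB, saline and treated knockout (0.43, SE 0.102, edgeR adjusted p = 0.0318). It passed when the libraries high in Ttr were left out (adjusted p = 0.0345) and was lost without saline knockout 2, 3 or 4 or treated knockout 1 or 4. Otx2, which choroid plexus also expresses, was at 27.2, 21.6 and 19.0 CPM in the 3 libraries high in Ttr and at 11.2 to 15.7 CPM in the other 9. Lmx1a was at 2.20, 2.24 and 1.86 CPM. Of 11 granule cell progenitor genes 9 were tested, and 0 passed in any comparison by edgeR, DESeq2 or limma-voom, with 0, 2 and 0 at an unadjusted p under 0.05, of which 2 are 22.2% against 15.5% of all genes. Their median was 0.00, 0.02 and −0.11. Atoh1 had 0 counts in all 12 libraries, which allows up to 0.0853 CPM in the shallowest (3 counts), and the proliferation marker Mki67 was at 0.364, 0.432 and 0.302 CPM.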

How the data were processed

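RNA was extracted from mouse cerebellum and made into TruSeq libraries, per the labels' protocols. The authors deposited whole-number read counts per gene, which per the submitters' processing notes were made with Trim Galore, HISAT2 and featureCounts on GRCm39. Tool versions, strandedness, the annotation and the handling of multi-mapped reads were not given in the sources used here. Counts of overlapping genes and near-identical copies are therefore uncertain. Symbols and exon lengths came from GENCODE M21 (52029 of 57010 genes matched), and promoter windows from RefSeq (GRCm38.p6).

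The members and related lists were chosen with earlier results of these data known. After filterByExpr (minimum count 10, total 15) and TMM scaling, edgeR 4.0.16 (R 4.3.3) fitted 3 group means by robust quasi-likelihood with 9 residual degrees of freedom. Contrasts were adjusted by Benjamini-Hochberg over 19166 genes. The SE was derived from the log2 fold change and its F statistic. Floors of 3 counts cover counting error only. All members were named by role. Those with an unadjusted p under 0.05 got values per library, and from each related list the genes that passed and up to 3 others were named, except some that are not reported here. The alternatives were DESeq2 1.42.0, limma-voom (limma 3.58.1), scaling by RLE or upper quartile, no low-count filter, a stricter one (10 counts in 8 libraries), separate fits of each pair of groups, a replicate block, and omission of each library. Omission of the 3 libraries above 1000 CPM of Ttr, and a log2 Ttr covariate, were added after seeing the data. The fit was tested on simulated counts.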

Additional observations from a re-analysis of the deposited data

Results flagged for a closer look

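In 5 of 93 groups of 4 libraries, 1 library lay apart by a Dixon test at the 95% level, and chance gives about 1 in 20. Zic1 was at 1051 CPM in saline knockout 4 (other saline knockouts: 805 to 841 CPM). Eomes was at 61.4 CPM in saline knockout 4, against 20.9 to 24.5 CPM. Cntn1 was at 374 CPM in saline knockout 4, below the 408 to 411 CPM of the others. Cbln1 was at 1217 CPM in FVB 2, against 957 to 992 CPM, and Tiam1 was at 313 CPM in FVB 1, below 356 to 363 CPM.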

How the results depend on the processing

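Each fold change that was called, or had an unadjusted p under 0.05 among the members, kept its sign in all 22 alternatives, and RLE and upper quartile scaling moved the median of all genes by at most 0.00302. For genotype, 1 member was called, against 0 by limma-voom, 0 without the 3 libraries high in Ttr and 2 without the low-count filter (Svep1 and Gap43). For treatment, 0 were called, against 2 by DESeq2, 1 without the filter (Svep1) and 1 with a replicate block (Uncx, adjusted p = 0.0486). For treated knockout against FVB, 4 were called, against 2 without the libraries high in Ttr (Svep1 and Calb2) and 2 with the Ttr covariate (Svep1 and Barhl2). Leaving out 1 library at a time gave 0 to 1, 0 to 1 and 2 to 4 members. Of all genes, 294 were called for genotype, against 633 by DESeq2, 506 without the filter and 156 to 300 leaving out 1 library. For treatment 550 were called, against 986 by DESeq2, 215 without the libraries high in Ttr and 347 to 689 leaving out 1 library. For treated knockout against FVB 1352 were called, against 556 without the libraries high in Ttr and 791 to 1542 leaving out 1 library. The cause of these differences was not tested, except that leaving out libraries leaves fewer samples. Libraries in different groups share numbers in their titles, and the deviations of same-numbered libraries correlated at −0.0987 to 0.145, with 2 of 12 pairs over 0.1, so the numbers were not taken as pairs. The block ended the treatment calls of Grik2 and Grin1 (adjusted p of 0.0502 and 0.0535). With the replicate block 274, 563 and 1322 genes were called, and 4 of 12 libraries correlated best with their own number. Of the tested progenitor genes 1, Sfrp1, was called lower in treated knockout against FVB without the libraries high in Ttr. Depth limits Cbln2, at 0 to 15 counts, which was not tested.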
